A study of Mus musculus and Homo sapiens with 180 samples.

Results

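K562 cells are a human erythroleukaemia line from a patient with chronic myeloid leukaemia in blast crisis. They carry the BCR-ABL fusion kinase, have wild-type MLL1 and express embryonic and fetal globins. The comparison described here set 4 libraries of K562 cells treated with SGC0946 at 5 µM for 168 h against 4 libraries of K562 cells treated with DMSO for 168 h. These are 8 of the 180 samples of the series, chosen by their labels and not by any measured value. All 8 carry the label Control, so none is a PCGF1 or BCOR knockout of the study. The study used K562, with HUDEP-2 erythroid progenitors and mouse embryonic stem cells, to ask what DOT1L inhibition does in cells without an MLL fusion. HUDEP-2 is an immortalised human erythroid progenitor line. Its 4 DMSO and 4 SGC0946 libraries at the same dose and time serve here as the comparison line. The labels give Mus musculus as the organism of the K562 samples, although the line is human and the counts are assigned to human genes.

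DOT1L is the methyltransferase of lysine 79 on histone H3 (H3K79), a mark laid down along the bodies of transcribed genes together with elongating RNA polymerase II. SGC0946 is a small molecule that occupies its cofactor pocket and blocks methylation. In leukaemias with an MLL fusion, DOT1L is recruited to targets such as the HOXA genes. PRC1.1 is a Polycomb complex that ubiquitinates histone H2A at lysine 119 and acts against transcription. In erythroid cells, GATA1, KLF1 and NFE2 drive the globin genes, and embryonic, fetal and adult globins are used in turn during development.

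Transcript levels come from 3′ RNA-seq, in which reads pile up at the end of each transcript, and are given as CPM, counts scaled to the size of each library. Totals ran from 6939093 to 8750275 counts in DMSO and from 9585474 to 12550004 in SGC0946, so every treated library was deeper than every control library. Correlations of log2 levels were 0.973 to 0.985 within groups and 0.948 to 0.953 between them. The erythroid identity of the cells was visible in the defining genes, with GATA1 at 276 to 346 CPM and HBG2 at 994 to 1250 CPM in DMSO. B-cell PAX5 and granulocyte ELANE were listed at 0 in all 8 libraries. The same table holds MOLM13 leukaemia libraries, and MOLM13 genes were seen in K562 at trace level. HOXA10 reached 0.673 CPM in K562 against a mean of 31.8 CPM in MOLM13 DMSO libraries.

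SGC0946 changed a large share of the K562 transcriptome in both directions. Of 10276 genes tested, 3588 (34.9%) passed edgeR's quasi-likelihood test at a Benjamini-Hochberg adjusted p under 0.05, with 1822 (17.7%) raised and 1766 (17.2%) lowered. Most changes were small. A log2 fold change beyond 1 was seen for 867 of the called genes (8.44% of those tested), of which 410 were raised (3.99%) and 457 lowered (4.45%). With every library thinned to the depth of the smallest, 3484 genes passed. When the fit held all 32 libraries of the table, MOLM13 included, which then share the estimate of spread, 157 genes passed, 150 of them also called in the 8 libraries alone. Of 133 called genes that the naming rule chose, 34 passed in that fit.

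Large rises took genes from a trace to a clear level. AQP1, a water channel of the red cell and kidney, had 0.673, 1.28, 0.429 and 0.658 CPM in the DMSO libraries against 18.6, 16.4, 17.8 and 21.8 CPM with SGC0946. All treated libraries lay far above all controls, and the fold was 23.6 (log2 fold change 4.56 ± 0.26 SE, adjusted p = 3.01e-11). SH2D1B, an adaptor protein of natural killer cell receptors, went from at most 0.673 CPM to at least 10.2 CPM, 21-fold. PYY encodes a gut peptide hormone and rose 17.5-fold, to 10.8 to 17.2 CPM. ALDH1A1, which makes retinoic acid, rose 17.3-fold, from at most 0.658 CPM to 4.22 to 7.66 CPM. FEV, an ETS family transcription factor of serotonergic neurons, rose 11.1-fold and HPGD, which inactivates prostaglandins, 10.6-fold. SLC7A8, a transporter of neutral amino acids, rose 8.97-fold. GPRC5B, DLK2, LBHD2 and FSD1 also rose, at 10, 9.35, 9.22 and 8.83-fold.

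**Figure D1:**
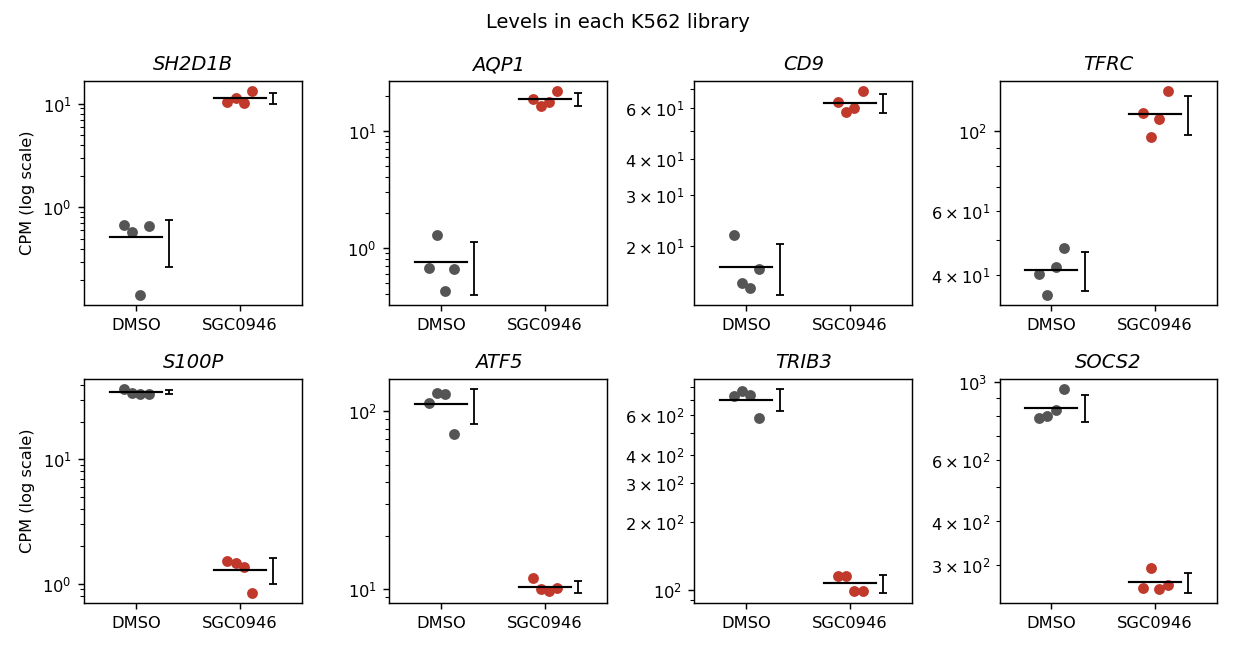
Levels of 8 genes in each K562 library, in CPM on a log axis. Points are libraries (4 per group), the horizontal line is the mean and the bar beside it the SD. SH2D1B, AQP1, CD9 and TFRC lie higher and S100P, ATF5, TRIB3 and SOCS2 lower in every SGC0946 library than in every DMSO library.

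Large falls varied in how evenly the libraries showed them. S100P, a secreted calcium-binding protein, had 36.9, 34.5, 33.8 and 33.8 CPM in DMSO and 1.52, 1.47, 1.35 and 0.846 CPM with SGC0946, a 26.6-fold fall (log2 fold change -4.74 ± 0.19, adjusted p = 1.19e-13). TAFA2, a secreted brain chemokine-like protein, fell 14.7-fold and SCN4A, the sodium channel of skeletal muscle, 13.4-fold. AKNA, an AT-hook protein of the centrosome and nucleus, fell 11.6-fold, from 16.4 to 19.6 CPM to 0.871 to 2.62 CPM. IL20RB, a subunit of the interleukin-20 receptor, fell 11.1-fold. ATF5, a transcription factor of the integrated stress response, stood at 111, 127, 125 and 74.5 CPM in DMSO and at 11.5, 9.97, 9.79 and 10.1 CPM with SGC0946 (log2 fold change -3.40 ± 0.15, adjusted p = 5.68e-13). SH3BP2, an adaptor of tyrosine kinase signalling, fell 8.34-fold. G0S2, an inhibitor of triglyceride breakdown, fell 7.93-fold with a wide spread in treated cells, from 0.94 to 6.61 CPM. NUPR1, a stress-induced chromatin protein, behaved alike, with 3.37, 4.09, 0.557 and 0.564 CPM in the treated libraries against 14.3 to 17.4 CPM in DMSO. EPS15-AS1 and LINC02212, both long non-coding RNAs, fell 7.81 and 7.78-fold. MPO, the myeloperoxidase of granulocytes, was called lowered from 13.7, 1.05, 2.58 and 5.59 CPM in DMSO to at most 0.945 CPM. The log2 fold change of MPO was -2.88, and -2.01 without DMSO replicate 1 (adjusted p = 0.00922).

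A few genes were near absent in 1 group and clearly counted in the other. Over the 4 DMSO libraries together, GDF3 had 1 count, PLAT 2 counts, and GNG11 and SPANXB1 3 counts each. With SGC0946 they had 114, 108, 164 and 112 counts. GDF3 encodes a growth factor of the TGF-beta family, PLAT the tissue plasminogen activator and GNG11 a G protein gamma subunit. Their ratios of counts per depth were 87.4 (95% exact interval 15.4 to 3480), 41.4 (11.2 to 346), 41.9 (14.1 to 205) and 28.6 (9.54 to 141). The intervals cover counting error only. All genes of this paragraph were chosen for few counts in 1 group and a clear level in the other. Large ratios follow from that choice, so the intervals are no test of a change. In the other direction, GDAP1L1 had 90 counts in DMSO and 0 with SGC0946, which makes it at least 39.2-fold lower when 3 counts over the treated group are taken as the floor. FUT1, the fucosyltransferase that makes the H antigen of red cells, had 73 counts in DMSO and 2 with SGC0946. The uncharacterised LOC101929014 had 57 and 0. In all, 6 genes were switched on and 3 off by this criterion.

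Every tested gene of the amino acid response list was lowered. ATF4 is the transcription factor that is translated when amino acids are short or proteins misfold. It raises genes that make, import and charge amino acids, together with the stress genes TRIB3, DDIT3 and CHAC1. Its best known binding sequence, the C/EBP-ATF response element, has the form TGATGNAA. Of 17 members tested in a list of 20, all 17 were lowered and none raised, against 17.2% lowered among all genes tested. Their median log2 fold change was -1.09, where that of all genes was -0.01, and 16 of the 17 did not overlap between groups, a condition met by 32.8% of all genes. The summed level of the list was 4990 to 5610 CPM in DMSO and 2130 to 2780 CPM with SGC0946. Leaving out any 1 library left 16 or 17 members lowered.

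Sequences that match this element near 3 of these genes are printed to show where the letters of the element stand beside genes that fell. They come from GRCh38, in windows from 250 bases before to 50 bases after the start of the canonical transcript in GENCODE release 44. Capitals mark the match on either strand, and positions count from that transcript start. The annotated CHAC1 gene begins further upstream, at 40952962, so its match lies inside the gene.
ATF3, chr1:212608730-212608757, plus strand, at -21: ataaaaggggTGATGCAAcgctctccaa
CHAC1, chr15:40953252-40953279, plus strand, at -209: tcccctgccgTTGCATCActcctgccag
SLC7A11, chr4:138242427-138242454, minus strand, at -95: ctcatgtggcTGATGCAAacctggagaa
SLC7A11, chr4:138242408-138242435, minus strand, at -76: cctggagaatTTGCATCAtcatttagct
A match stood in 3 of 17 windows of the list, 17.6%, against 162 of 9917 windows of all tested genes, 1.63%. It stood in 3.19% of the windows of lowered genes and in 1.18% of those of raised genes. The list was made of genes known to answer to ATF4, so its share may follow from that choice. These are matches of letters, and binding was not measured.

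TRIB3, a pseudokinase that feeds back on ATF4, had 728, 768, 737 and 586 CPM in DMSO and 115, 116, 98.6 and 98.7 CPM with SGC0946, a 6.59-fold fall (log2 fold change -2.72 ± 0.09, adjusted p = 9.48e-15). DDIT3, the pro-apoptotic factor CHOP, went from 287, 286, 317 and 313 CPM to 78.9, 97.7, 50.6 and 37.4 CPM (log2 fold change -2.19 ± 0.18, adjusted p = 5.18e-09). CHAC1, which degrades glutathione, stood at 152 to 156 CPM in DMSO and at 43.0, 81.3, 28.6 and 37.9 CPM with SGC0946. For both DDIT3 and CHAC1 the treated libraries spread more widely than the controls, and SGC0946 replicate 2 was the highest, yet neither group reached the other. STC2, a secreted glycoprotein, fell by 1.64 on the log2 scale (± 0.20). PSPH, PHGDH and PSAT1, the 3 enzymes of serine synthesis, fell by 1.64, 1.61 and 1.39. PHGDH stood at 247 to 270 CPM in DMSO and at 79.0 to 97.5 CPM with SGC0946. The mitochondrial folate enzymes MTHFD2 and SHMT2 fell by 1.09 and 0.92, the amino acid transporter subunits SLC7A11, SLC7A5 and SLC3A2 by 0.92, 1.02 and 0.88, and ATF4 itself by 0.70 ± 0.14 (adjusted p = 0.000466). The smallest fall was that of XPOT, the exporter of tRNA, at 0.31. ASNS, asparagine synthetase, had 8 counts in DMSO and 0 with SGC0946 and was not tested, and SESN2 was listed at 0.

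Enzymes of serine, one-carbon and related amino acid synthesis, gathered in a list after their values were seen, showed 13 of 16 tested members lowered and 2 raised, with a median of -1.01. That is 81.2% lowered and 12.5% raised, against 17.2% and 17.7% of all genes. CTH, which makes cysteine from cystathionine, had 171, 165, 165 and 174 CPM in DMSO and 33.2, 55.1, 36.9 and 36.7 CPM with SGC0946 (log2 fold change -2.06 ± 0.12, adjusted p = 2.42e-11). GPT2, the mitochondrial alanine transaminase, fell 3.98-fold. ALDH1L2, of mitochondrial folate metabolism, and ASS1, of arginine synthesis, fell by 3.28 and 2.45 on the log2 scale from low levels of 3.60 and 8.70 CPM. The raised members were ALDH18A1, of proline synthesis, and the cytosolic folate enzyme MTHFD1, with log2 fold changes of 0.44 and 0.26.

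The cytosolic aminoacyl-tRNA synthetases, which load amino acids onto tRNA, were split. This list too was made after values were seen. Of 19 tested, 12 were lowered and 3 raised (63.2% and 15.8%, against 17.2% and 17.7% of all genes), with a median of -0.48. WARS1, for tryptophan, went from 837 to 915 CPM in DMSO to 282 to 325 CPM, a 2.97-fold fall (log2 fold change -1.57 ± 0.07, adjusted p = 5.37e-13). AARS1, CARS1, GARS1 and MARS1, for alanine, cysteine, glycine and methionine, fell by 1.16, 1.08, 1.08 and 1. FARSA, HARS1 and RARS1, for phenylalanine, histidine and arginine, were raised by 0.46, 0.24 and 0.28. Of 15 tested synthetases of the mitochondrial set, 2 were raised and 2 lowered (13.3% each way), with a median of 0.04. The difference between these sets was not tested.

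Genes of the endoplasmic reticulum (ER) stress response went both ways. In a list made after values were seen, 8 of 20 tested genes were lowered and 4 raised. That is 40% and 20%, against 17.2% and 17.7% of all genes. XBP1, the transcription factor activated by IRE1 splicing, had 377, 358, 367 and 366 CPM in DMSO and 167, 194, 164 and 176 CPM with SGC0946 (log2 fold change -1.07 ± 0.07, adjusted p = 2.61e-10). HERPUD1 and SEL1L, of ER-associated degradation, fell by 1.11 and 1.08, the co-chaperone DNAJB9 by 1.16 and the sensor ATF6 by 0.87. The ER chaperone cofactor SDF2L1 rose by 0.92 (± 0.06) and CRELD2 by 0.54. HSPA5, the central ER chaperone, had a log2 fold change of -0.19 ± 0.07 (adjusted p = 0.0504) and was not called. Folding factors stood on both sides, since the ER chaperone CALR rose by 0.45 and the co-chaperone DNAJC3 fell by 0.85.

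Of 21 tested chaperones of the cytosol and mitochondria, in a list made after values were seen, 13 were raised, 1 was lowered and 7 were not called, HSPD1 among them (median 0.42). That is 61.9% raised and 4.76% lowered, against 17.7% and 17.2% of all genes. HSPA8, the constitutive HSP70 protein, had 485, 580, 528 and 399 CPM in DMSO and 1170, 1070, 1190 and 1200 CPM with SGC0946, a 2.32-fold rise (log2 fold change 1.21 ± 0.09, adjusted p = 8.12e-10). Its co-chaperones DNAJB1 and DNAJA1 rose by 1.18 and 0.84, the HSP90 activator AHSA1 by 0.78, and HSP90AA1 and HSP90AB1 by 0.56 and 0.43. HSPA9, the mitochondrial HSP70, was the lowered member, at -0.40 ± 0.07. HSPA1A and HSPA1B, the inducible HSP70 genes, were listed at 0 in every library, as were widely expressed genes such as CANX and HYOU1, so a listed 0 does not show that a gene is silent. Among the SR splicing factors 8 of 13 tested (61.5%) were raised and none lowered (median 0.26, list made after values were seen, 6 raised under library-size scaling). SRSF1 went from 179 to 202 CPM to 354 to 400 CPM (log2 fold change 1 ± 0.07) and SRSF2 from 183 to 266 CPM to 427 to 491 CPM (0.96 ± 0.09).

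**Figure D2:**
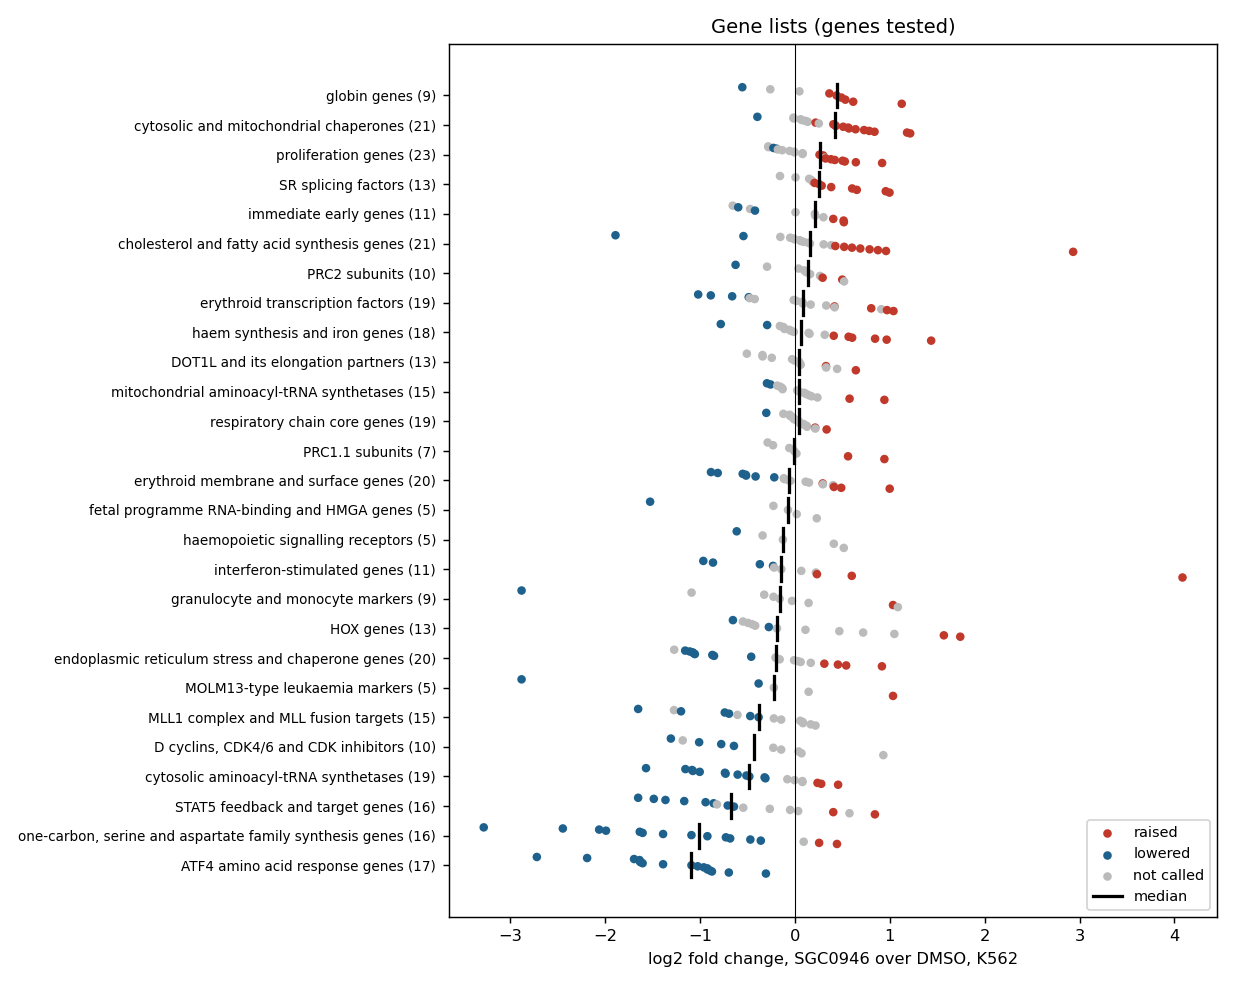
Log2 fold change of SGC0946 over DMSO in K562 for each tested member of the gene lists with 5 or more tested members, with the number tested in parentheses. Each point is a gene, coloured by its call (edgeR adjusted p under 0.05), and the black line is the list's median. All 17 tested ATF4 response genes lie below 0, while 6 of 9 globin genes and 13 of 21 chaperones are raised. Of all genes tested, 17.7% were raised and 17.2% lowered.

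Part of a list of STAT5 feedback and target genes was lowered. STAT5 is phosphorylated downstream of the erythropoietin receptor and of BCR-ABL and raises its own inhibitors, the SOCS family and CISH, which makes their transcripts a common readout of the pathway. Of 16 tested genes, 8 were lowered and 2 raised (median -0.68), and the same counts held with any 1 library left out. That is 50% lowered and 12.5% raised, against 17.2% and 17.7% of all genes. The list also holds DUSP6, SPRED2, SPRY2, SPRY4 and ETV5, of RAS-ERK signalling, so its counts are not of STAT5 targets alone. SOCS2 had 790, 798, 831 and 953 CPM in DMSO and 258, 294, 257 and 264 CPM with SGC0946, a 3.14-fold fall (log2 fold change -1.65 ± 0.08, adjusted p = 8.96e-13). CISH went from 107, 123, 98.3 and 85.5 CPM to 38.9, 38.6, 41.5 and 41.3 CPM (log2 fold change -1.37 ± 0.10, adjusted p = 2.15e-09). SOCS1 fell 2.81-fold and PIM1, a survival kinase, 2.25-fold, from 373 to 393 CPM to 158 to 178 CPM. The other lowered members were PIM2, BCL2L1, CCND2 and ETV5, by 0.86, 0.71, 0.64 and 0.94 on the log2 scale. Raised members were ID1, an inhibitor of basic helix-loop-helix factors, by 0.84 ± 0.09, and MYC by 0.40 ± 0.11. MCL1 had a log2 fold change of 0.03 ± 0.12 and PIM3 of -0.05 ± 0.13. Of 21 haemopoietic signalling receptors 5 were tested. The TGF-beta receptor TGFBR1 was lowered, by 0.61, and none was called raised.

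The STAT site TTCNNNGAA reads the same on either strand, and CISH carries several copies close to its start. They are shown because CISH is the textbook STAT5 target and fell here.
CISH, chr3:50611997-50612024, minus strand, at -241: cgccccgttTTCCTGGAAagttcttgga
CISH, chr3:50611986-50612014, minus strand, at -230: tcctggaaagTTCTTGGAAatctgtcaaa
CISH, chr3:50611885-50611913, minus strand, at -129: cagcccgcggTTCTAGGAAgacgctgctt
CISH, chr3:50611868-50611896, minus strand, at -112: aagacgctgcTTCCGGGAAgggctggaac
Of the 16 windows of this list, 3 held a match (18.8%), against 5.67% of the 9917 windows of all tested genes. The others were SOCS3 and SPRY4, which were not called. SOCS2, SOCS1 and PIM1 had no such letters in their windows. This list too was made of known pathway genes, so its share may follow from that choice.

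Most globin genes rose. Of 9 tested, 6 were raised and 1 lowered (66.7% and 11.1%, against 17.7% and 17.2% of all genes, median 0.44). HBG2 and HBG1 encode fetal gamma-globin in near-identical copies, between which reads can be split. HBG2 had 1240, 1250, 994 and 1080 CPM in DMSO and 2060, 1540, 1410 and 1580 CPM with SGC0946 (log2 fold change 0.53 ± 0.10, adjusted p = 0.000188), and HBG1 rose by 0.44 ± 0.09. HBZ, embryonic zeta-globin, went from 343 to 463 CPM to 582 to 751 CPM (0.61 ± 0.09), and the alpha-globin genes HBA2 and HBA1, also near-identical, rose by 0.49 and 0.36. HBD, the minor adult delta-globin, rose 2.18-fold from 12.4 to 20.6 CPM to 32.9 to 41.1 CPM. HBE1, embryonic epsilon-globin, was the exception, with 466, 591, 473 and 422 CPM in DMSO and 364, 313, 316 and 334 CPM with SGC0946 (log2 fold change -0.55 ± 0.09, adjusted p = 3.98e-05). Adult HBB varied without regard to treatment, at 5.38, 132, 40.6 and 3.51 CPM in DMSO and 21.1, 111, 13.9 and 7.33 CPM with SGC0946. Replicate 2 was the highest library of each group, and the groups overlapped (log2 fold change -0.26 ± 0.73).

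**Figure D3:**
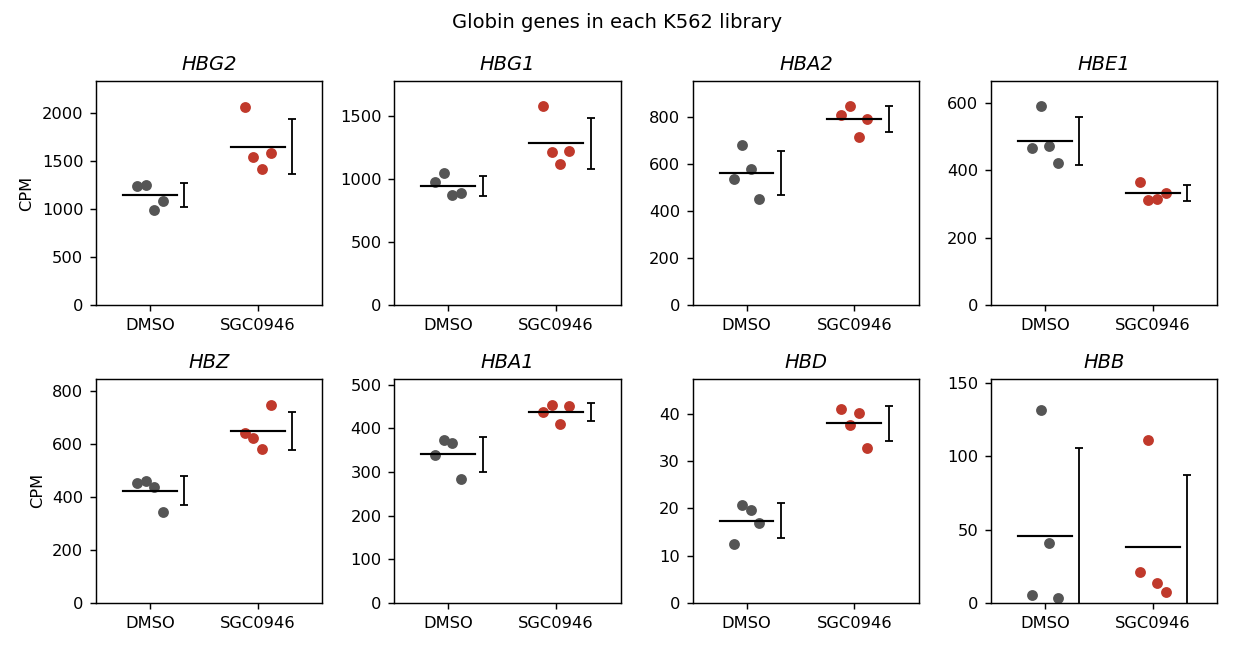
Globin genes in each K562 library, in CPM on linear axes that start at 0. Points are libraries (4 per group), lines are means and bars beside them the SD, which for HBB are cut at 0. HBG2, HBG1, HBA2, HBZ, HBA1 and HBD lie higher with SGC0946, HBE1 lies lower, and HBB ranges from 3.51 to 132 CPM in DMSO and from 7.33 to 111 CPM with SGC0946.

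Of 19 tested erythroid transcription factors, 4 were raised and 4 lowered (3 and 4 under library-size scaling), 21.1% each way, near the 17.7% and 17.2% of all genes. NFE2, a driver of globin and platelet genes, had 182, 186, 188 and 203 CPM in DMSO and 394, 349, 386 and 430 CPM with SGC0946 (log2 fold change 1.04 ± 0.08, adjusted p = 7.76e-10). KLF1, the master activator of adult erythroid genes, rose 1.96-fold from 216, 216, 228 and 156 CPM to 407, 364, 412 and 416 CPM. LMO2 and TAL1, partners in the GATA1 complex, rose by 0.80 and 0.42. HHEX, a homeobox factor of early blood and endothelial cells, went from 253 to 290 CPM to 140 to 154 CPM (-0.89 ± 0.07), and RUNX1 fell by 0.66 and IKZF1 by 0.49. SOX6, a repressor of embryonic globin, was called at -1.02 ± 0.39 from only 3.31 CPM (adjusted p = 0.0463). That call was lost (adjusted p 0.0705 to 0.118) without DMSO replicate 1 or 4 or SGC0946 replicate 1, 2 or 3, and with a replicate block (adjusted p = 0.0529). GATA1, at 276 to 346 CPM in DMSO and 344 to 367 CPM with SGC0946, was not called (0.17 ± 0.07, adjusted p = 0.0916).

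Of 18 tested haem and iron genes, 6 were raised, 2 lowered and 10 not called. That is 33.3% raised and 11.1% lowered, against 17.7% and 17.2% of all genes. TFRC, the transferrin receptor, had 40.1, 35.1, 42.1 and 47.3 CPM in DMSO and 112, 96.1, 108 and 129 CPM with SGC0946, a 2.71-fold rise (log2 fold change 1.44 ± 0.11, adjusted p = 1.42e-09). The second receptor TFR2 rose by 0.84 and the haem exporter FLVCR1 by 0.97. UROS, ALAS2 and SLC25A37, of haem synthesis and mitochondrial iron import, rose by 0.60, 0.57 and 0.41. The iron transporter SLC11A2 had a log2 fold change of 0.15 ± 0.20 and was not called. ABCB10 and SLC25A38 were lowered, by 0.78 and 0.29, and the ABCB10 call was lost without DMSO replicate 3 (adjusted p = 0.057). Among 20 erythroid membrane genes, 4 were raised and 7 lowered (20% and 35%), the raised share being near the 17.7% of all genes. The glycophorin genes GYPE, GYPC and GYPB fell by 0.88, 0.52 and 0.52, with GYPE at 165, 141, 161 and 173 CPM in DMSO and 95.8, 81.5, 84.8 and 84.5 CPM with SGC0946. GYPB and GYPE are close paralogs, between which reads can be split. ANK1 and ADD2 of the membrane skeleton and CD47 rose by 0.41, 0.49 and 0.29. Under library-size scaling 2 members of this list were raised. Late markers stayed near the limit of detection, with SLC4A1 at 13 and 11 counts and AHSP at 9 and 34 counts in DMSO and SGC0946.

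Markers of other blood lineages were mostly absent. Only 2 of 20 megakaryocyte genes were tested. CD9, a tetraspanin that is also found outside that lineage, rose from 21.8, 14.9, 14.3 and 16.6 CPM to 62.8, 58.1, 59.9 and 68.5 CPM (log2 fold change 1.88 ± 0.13, adjusted p = 4.31e-10). The platelet genes PF4 and GP9 had 0 counts in DMSO and 6 and 1 with SGC0946. Of 22 granulocyte and monocyte genes, 9 were tested, with LYZ (lysozyme) raised and MPO lowered. LYZ went from 28.9, 19.8, 9.44 and 9.87 CPM to 45.7, 36.5, 27.7 and 29.5 CPM, so the groups overlapped. The summed level of that list was 179 to 337 CPM in DMSO and 218 to 317 CPM with SGC0946.

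DOT1L itself was not called. It had 10.8, 7.70, 9.16 and 6.91 CPM in DMSO and 11.4, 12.6, 9.95 and 12.9 CPM with SGC0946 (log2 fold change 0.44 ± 0.19, adjusted p = 0.0722), and passed without DMSO replicate 1 (0.56, adjusted p = 0.0382). An inhibitor of the enzyme need not change its transcript. Of 13 tested DOT1L partners and elongation factors, CDK9, the kinase of elongation factor P-TEFb, rose by 0.64 ± 0.11, from 33.3 to 42.4 CPM to 52.1 to 64.1 CPM. MLLT3 was called at 0.33 ± 0.12 (adjusted p = 0.0325), a call lost at adjusted p 0.0562 to 0.116 with library-size scaling and without DMSO replicate 2 or 3 or SGC0946 replicate 1, 3 or 4. Among 7 tested PRC1.1 subunits, KDM2B, which brings the complex to CpG islands, rose by 0.56 ± 0.15, from 10.6 to 12.6 CPM to 15.8 to 19.5 CPM. BCORL1 was called at 0.94 ± 0.34 from 2.27 CPM, with adjusted p 0.0508 to 0.105 in 6 of the 8 fits that left out 1 library (without DMSO replicate 1, 2 or 3 or SGC0946 replicate 1, 2 or 4). PCGF1 had 18 and 11 counts, and RING1 and RYBP were listed at 0. Of 10 tested PRC2 genes, the methyltransferase EZH2 fell from 110 to 118 CPM to 68.1 to 80.4 CPM (-0.63 ± 0.08, adjusted p = 4.22e-06), while EED and PHF19 rose by 0.50 and 0.29. That is 20% of the PRC2 genes raised and 10% lowered, against 17.7% and 17.2% of all genes.

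CD2AP, an adaptor protein of the actin cytoskeleton on chromosome 6 (GRCh38, 47477789 to 47627263, plus strand), is the K562 gene that the study displays. It had 16, 11.0, 17.7 and 18.9 CPM in DMSO and 9.58, 10.1, 13 and 11.8 CPM with SGC0946, so the groups overlapped (log2 fold change -0.51 ± 0.18, adjusted p = 0.0338). The call was lost without DMSO replicate 1, 3 or 4 (adjusted p = 0.0627, 0.0861 and 0.0958) or SGC0946 replicate 1, 2 or 4 (0.0942, 0.081 and 0.0528).

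Some targets of MLL fusions were lowered. Of 24 genes of the MLL1 complex and its fusion targets, 15 were tested, 6 lowered and none raised (median -0.38). The lowered share was 40%, against 17.2% of all genes. PSIP1 and ASH2L are partners of MLL1, so this share is not of fusion targets alone. JMJD1C, a demethylase family protein, had 14.5, 16, 12.9 and 15.9 CPM in DMSO and 6.64, 6.72, 6.45 and 6.01 CPM with SGC0946 (log2 fold change -1.20 ± 0.17, adjusted p = 1.24e-05). ZEB2, PSIP1, ASH2L and SOCS2 also fell, by 0.74, 0.70, 0.47 and 1.65, SOCS2 being a STAT5 target as well. MEF2C was called at -0.38 (adjusted p = 0.014), a call lost without DMSO replicate 3 (adjusted p = 0.0648). HOXA7 and HOXA9 were listed at 0, and MEIS1 and CDK6 had log2 fold changes of -0.22 ± 0.28 and -0.14 ± 0.16, neither called. Over all 39 HOX genes, a list made after values were seen, 13 were tested, 2 raised and 2 lowered, 15.4% each way against 17.7% and 17.2% of all genes. HOXB2, at 164 and 104 CPM, fell by 0.65 ± 0.08. HOXC8 was called at 1.74 and HOXB13 at 1.57, both from 0.64 CPM. The HOXC8 call was lost without DMSO replicate 1 or 3 (adjusted p = 0.0531 and 0.0621) and that of HOXB13 without DMSO replicate 1, 3 or 4 (0.0649, 0.0684 and 0.0548). HOXC9, called at -0.28, lost its call without DMSO replicate 2 or 3 or SGC0946 replicate 1, 2 or 4 (0.0547 to 0.118).

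Of 23 tested proliferation genes, 11 were raised and 2 lowered (47.8% and 8.7%, against 17.7% and 17.2% of all genes, median 0.26). CCNE1, the cyclin of S-phase entry, went from 21, 23.8, 21.5 and 19.6 CPM to 37.8, 34.9, 44.6 and 45.0 CPM (log2 fold change 0.92 ± 0.13, adjusted p = 6.92e-06). The replication genes MCM3, MCM4 and RRM2 rose by 0.64, 0.53 and 0.50. CCNB2 and MCM5 were the lowered members, by 0.19 and 0.23. MKI67, the Ki-67 antigen, had a log2 fold change of 0.32 ± 0.16 (adjusted p = 0.142). Of 10 tested D cyclins, their kinases and inhibitors, 4 were lowered (40%) and none raised. CDKN2C, which encodes the CDK4/6 inhibitor p18, fell from 58.8, 43.0, 49.9 and 35.9 CPM to 19.3, 19, 19.3 and 18 CPM (-1.31 ± 0.14, adjusted p = 2.42e-07). CDKN2D fell by 1.01 and CCND2 by 0.64. RB1 was called at -0.78 ± 0.28 from 6.58 CPM, a call lost at adjusted p 0.0532 to 0.108 without DMSO replicate 2, 3 or 4 or SGC0946 replicate 2, 3 or 4.

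Lipid synthesis genes were raised in part, with 8 of 21 tested raised and 2 lowered (median 0.16). That is 38.1% and 9.52%, against 17.7% and 17.2% of all genes. HMGCS1 and SQLE, of the cholesterol pathway, rose by 0.96 ± 0.13 and 0.88 ± 0.07, and FASN, fatty acid synthase, by 0.60. ACACA, of fatty acid synthesis, fell by 1.89 from 1.75 CPM. Among 11 tested interferon-stimulated genes, 3 were raised and 4 lowered (27.3% and 36.4%, where all genes had 17.7% and 17.2%). IFI6 rose from 0, 0.466, 0.286 and 0.11 CPM to 3.48, 4.83, 4.14 and 3.20 CPM (log2 fold change 4.09 ± 0.56), while IFI35 and STAT2 fell by 0.97 and 0.86. Of 11 immediate early genes, 3 were raised and 2 lowered (27.3% and 18.2%), the latter KLF6 and IER2, by 0.60 and 0.42. Of 19 tested respiratory chain genes, 2 were raised and 1 lowered (10.5% and 5.26%, median 0.04). Of 5 tested fetal programme genes, the RNA-binding protein IGF2BP3 fell from 4.10 to 1.42 CPM. The list of MOLM13-type leukaemia markers had 5 tested members, of which MPO and MEF2C were called lowered and LYZ raised.

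The response of the same genes was set beside that of HUDEP-2. There, 824 of 10099 genes passed (8.16%), with 511 raised (5.06%) and 313 lowered (3.1%). Each line has its own table, so a difference in level between lines cannot be told apart from one between tables. Only the responses are compared, in a single edgeR fit with the interaction of line and treatment. In that fit the libraries of both lines were scaled together. The response differed for 2176 of 11520 genes (18.9%), more positive in K562 for 1070 (9.29%) and more negative for 1106 (9.6%). Under library-size scaling these were 751 and 1384, with the median difference of all genes moving from -0.04 to -0.13. Among 321 genes called in both lines, 10.4% of the K562 calls and 49.8% of the HUDEP-2 calls over the 8896 genes tested in both, 216 went the same way and 105 opposite ways.

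Amino acid response genes differed between the lines. The response was more negative in K562 for 15 of 17 genes and more positive for none, against 9.6% and 9.29% of all genes. In HUDEP-2, none of 14 tested was lowered and 2 were raised, with a median of 0.20, where 3.1% and 5.06% of all genes were called. Some members had little room to fall there. TRIB3, DDIT3 and CHAC1 stood at means of 3.71, 6.52 and 3.95 CPM in the HUDEP-2 DMSO libraries. TRIB3 rose in HUDEP-2 by 1.77 and fell in K562 by 2.72 on the log2 scale, a difference of -4.49 (adjusted p = 1.73e-15). DDIT4, a stress-induced inhibitor of mTORC1, rose by 0.53 in HUDEP-2 and fell by 0.90 in K562 (difference -1.43, adjusted p = 2.55e-05). DDIT3 and PSPH differed by -2.48 and -1.96, with log2 fold changes of 0.27 and 0.32 in HUDEP-2 that were not called. ATF5 differed by -3.55, at 0.14 ± 0.18 in HUDEP-2. Of the remaining members, ATF3 differed by -1.68 (adjusted p = 0.165), and the difference of STC2 could not be estimated from its HUDEP-2 counts.

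**Figure D4:**
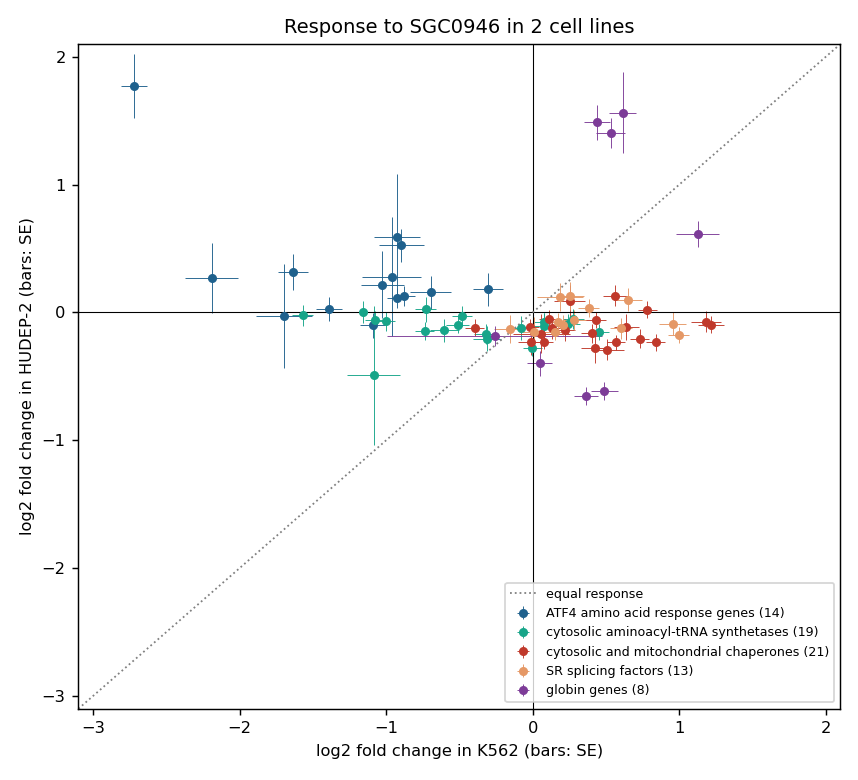
Log2 fold change of SGC0946 over DMSO in K562 (horizontal) and HUDEP-2 (vertical) for the members of 5 lists tested in both lines, with bars for the standard error and a dotted line of equal response. TRIB3 stands at the upper left, at -2.72 in K562 and 1.77 in HUDEP-2, and the synthetases, chaperones and SR factors spread along the K562 axis with small values in HUDEP-2.

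Other groups differed as well. Over all genes, the response was more negative in K562 for 9.6% and more positive for 9.29%. Genes of the STAT5 list were more negative in K562 for 6 of 18 and more positive for 1. SOCS1 fell by 1.49 in K562 and rose by 0.86 in HUDEP-2 (difference -2.37, adjusted p = 2.79e-07), and SOCS2, CISH and PIM1 differed by -1.54, -1.55 and -1.07. Chaperones were more positive in K562 for 14 of 21 and more negative for 1, HSPA9, and SR factors were more positive for 8 of 13 and more negative for none. TFRC rose in K562 by 1.44 and was lowered in HUDEP-2 by 0.21 (difference 1.64, adjusted p = 5.49e-11), and KLF1 differed by 1.03 and NFE2 by 0.93. Globins split by gene. The alpha-globins HBA1 and HBA2 rose in K562 and fell in HUDEP-2 by 0.66 and 0.61, differing by 1.01 and 1.1. HBG1, HBG2 and HBZ were raised in both lines but less in K562, with differences of -1.06, -0.88 and -0.94. Several genes moved the same way in K562 and HUDEP-2. CDKN2C fell by 1.31 and 1.29 (difference -0.03 ± 0.20), HMGCS1 rose by 0.96 and 0.87 (difference 0.09 ± 0.21), and GNG11 by 5.18 and 4.89 (difference 0.28 ± 1.32, on 3 DMSO counts in each line). ALDH1A1 rose by 4.11 and 5.70 (difference -1.60 ± 0.84, adjusted p = 0.204), and SLC7A8 by 3.17 and 1.58, where the difference of 1.58 passed (adjusted p = 0.00192).

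The shares of genes called were set against gene length as a description, with no test. Of 10276 tested genes, 9917 (96.5%) were matched by symbol to GENCODE release 44, 9326 of them protein-coding. These were divided into 5 bins of equal size by the length of the gene on the genome. In the shortest bin (up to 11.0 kb) 29.8% were raised and 13.6% lowered, and in the longest (89.8 kb and over) 9.22% were raised and 19.8% lowered. Medians went from 0.12 through 0.05, 0.00 and -0.04 to -0.12. Level moved with length, from a median of 35.6 CPM in the shortest bin to 10.3 CPM in the longest. Within the middle bin of level (10.3 to 25.7 CPM) the shares were 30% raised and 17.4% lowered for the shortest and 8.63% and 23.5% for the longest. In HUDEP-2 the same bins had 7.0% raised and 3.07% lowered at the short end and 3.41% and 3.72% at the long end.

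**Figure D5:**
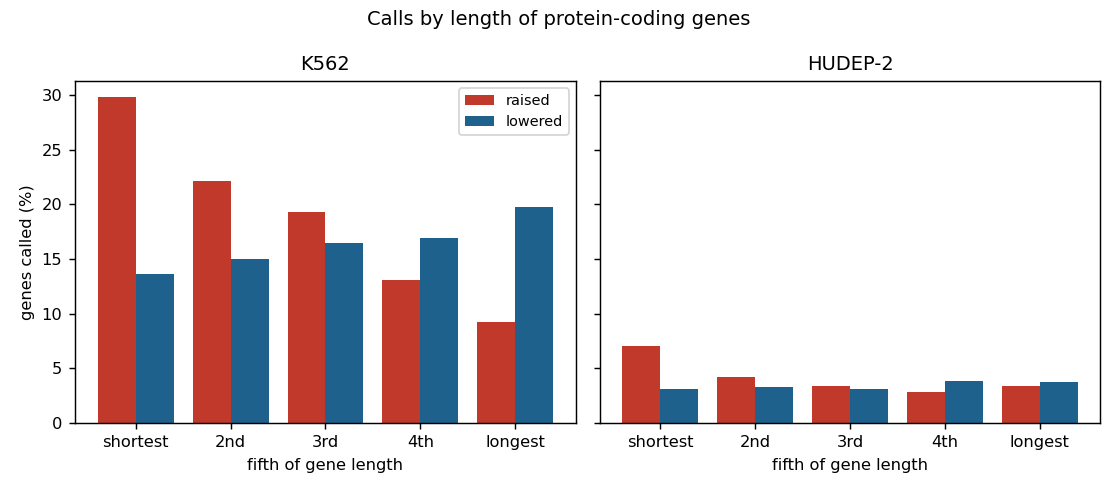
Share of protein-coding genes called raised or lowered by SGC0946, in percent, in 5 bins of equal size by gene length, for K562 (left) and HUDEP-2 (right). In K562 the raised share falls from 29.8% to 9.22% and the lowered share goes from 13.6% to 19.8%.

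The shares called were also taken by gene type, with no test of their difference. Of 468 long non-coding RNAs tested, 32.5% were lowered and 6.41% raised, with a median of -0.44, against 16.4% and 18.7% of protein-coding genes. Their levels were lower, with a median of 4.70 CPM against 18.7 CPM. Within the lowest 2 of 5 bins of level, 27.6% of 323 long non-coding RNAs and 8.99% of 3416 protein-coding genes were lowered. In HUDEP-2, where fewer genes of either type were called, 0.585% of 342 long non-coding RNAs were lowered and 2.34% raised. Of protein-coding genes there, 3.26% were lowered and 5.27% raised. The strand setting of the counts is not given in the sources used here, so reads of an antisense RNA and of its partner gene may not be told apart. Across chromosomes the share of raised genes ran from 8.05% on chromosome 13 to 23.1% on chromosome 16, and medians stayed between -0.11 and 0.10.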

How the data were processed

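After trimming (bbmap) and alignment to GRCh38 (STAR, quantMode GeneCounts), the authors deposited raw counts per gene; the labels' processing notes also name bcl2fastq and DESeq2. The strand column is not given in the sources used here. K562 shares its table with MOLM13; HUDEP-2 has its own. Columns were assigned by name, 0 were left unmapped, and the row without a gene name, at most 0.00015% of counts, was dropped. Genes reaching 2 CPM in 2 or more libraries were tested with edgeR 4.0.16 in R 4.3.3 (quasi-likelihood, TMM scaling, Benjamini-Hochberg, threshold 0.05); DESeq2 1.42.0 was an alternative. CPM use TMM-scaled sizes. Each SE is the absolute log2 fold change divided by the square root of the quasi-likelihood F statistic, so it is derived from the test. The procedure was tested on simulated data. Labels do not say whether replicates were separate cultures, so p-values measure the spread between these libraries.

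Named genes are DOT1L, CD2AP, the 12 largest non-overlapping called changes each way at 5 CPM or more in the higher group, up to 4 called members per list (or the 2 highest where none was called), genes nearly absent (3 counts or fewer) in 1 group, and the 6 largest differences from HUDEP-2 each way. Other list members were named after their values were seen. Members and lists were chosen with earlier results of these data known. Lists carry no test. Results for a few genes these rules name are not reported here.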

Additional observations from a re-analysis of the deposited data

Results flagged for a closer look

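Among 226 groups of 4 libraries (reported named genes with a mean of at least 1 CPM in the group, and the library totals), 4 held a library apart from the other 3, where chance gives about 1 in 20. KLF1 was low in DMSO replicate 4 (156 CPM), HMGCS1 in DMSO replicate 3 (37.1 CPM) and GARS1 in DMSO replicate 4 (745 CPM), while CTH was high in SGC0946 replicate 2 (55.1 CPM).

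The response to SGC0946 differed between K562 and HUDEP-2 for 2176 genes by the interaction test. The largest log2 differences in the positive direction among genes also called in K562 were those of CCDC102A (5.53), LGALSL (5.06), SFN (4.96), NT5DC4 (4.05), CHN1 (3.77) and GPRC5B (3.54). In HUDEP-2 the first 4 rested on few counts, 5 and 0 for CCDC102A, 18 and 11 for LGALSL, 8 and 3 for SFN and 23 and 20 for NT5DC4 in DMSO and SGC0946.

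In the negative direction they included NUPR1 (-8.18), CD69 (-8.00), UBA7 (-7.73), LINC02481 (-7.36) and LOC100506476 (-6.33). HUDEP-2 had 0 counts in DMSO and 40 with SGC0946 for CD69, an early activation marker of lymphocytes, and 0 and 21 for NUPR1. It had 1 and 45 for UBA7, 0 and 7 for LINC02481 and 0 and 10 for LOC100506476. The sizes of these differences therefore depend on the prior count. In K562, LOC100506476 was called at -2.12, a call lost without SGC0946 replicate 1, 3 or 4 (adjusted p 0.0516 to 0.056).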

How the results depend on the processing

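The count of 3588 changed genes ran from 3040 to 3691 with 1 library left out and from 3484 to 3709 with library-size scaling, DESeq2 size factors, DESeq2, no filter, a replicate block, thinning, or without 17 genes within reach of MOLM13 carry-over, the last 2 chosen after the data were seen. With all 32 libraries of the table in the fit it was 157, and 34 of 133 calls of named genes held; the cause was not tested. The study's threshold gave 2554. Library-size scaling turned 1822 raised and 1766 lowered into 1554 and 2049, and shifted the median log2 fold change of all genes from -0.01 to -0.05. For the difference from HUDEP-2, 2176 genes became 1858 to 2266 with 1 library left out, 2135 with library-size scaling (751 more positive, 1384 more negative) and 2232 without a filter. Deviations of libraries with the same replicate number correlated weakly between groups (-0.031 to 0.063). DMSO replicates 1, 3 and 4 matched their own number best and replicate 2 matched number 1, so whether numbers pair the libraries is not settled. The replicate block gave 3530 and 2006 genes. Of 134 named genes, none reversed; beside that fit, calls of 17 were lost with library-size scaling, DESeq2, the block or 1 library left out, among them IER5, COX5B, WARS2 and FARS2 (adjusted p 0.053 to 0.175) beside those given above. Depth limits genes of few counts, and a listed 0 cannot be read as silence.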

Other observations

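Genes of intermediate and high level held most calls. In the lowest of 5 bins of mean level (0.667 to 3.94 CPM) 9.73% of genes were raised and 9.44% lowered, and in the highest (from 82.8 CPM) 31.1% and 20%.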
